A study of Mus musculus with 8 samples.

Results

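Intermediate filaments are the ropelike fibres of the cytoskeleton, and the nuclear lamina under the inner nuclear membrane is built from members of the same protein family. The genes described here are 10 members chosen by symbol, of 23997 symbols in each RNA-seq library, and all 10 were found. They are the glial and precursor filament genes Gfap, Vim and Nes, the neuronal filament genes Nefl, Nefm, Ina and Prph, and the lamin genes Lmna, Lmnb1 and Lmnb2.

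The cells were mouse neural stem/precursor cells (NS/PCs) in primary culture, taken from the telencephalon of ICR mouse embryos at E11.5 (the stage label gives embryonic day 11) and kept with basic fibroblast growth factor at 10 ng/mL. Control cells (3 libraries) were compared with cells transduced with Nfia (3 libraries), which encodes a nuclear factor I (NFI) transcription factor, with RNA taken 3 days after transduction. The labels do not state what the control cells received, the vector, or whether a group's libraries are separate cultures. All p-values here therefore rest on the spread between libraries, which may be technical. ChIP samples of the series (Flag and IgG) were not used here.

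Filament genes are classic stage markers in the developing brain. Vimentin and nestin, from Vim and Nes, are the filaments of radial glia and other neural precursors, and nestin needs a partner such as vimentin to assemble. GFAP replaces them in large part as astrocytes mature. Alpha-internexin, from Ina, is the early filament of young neurons, and neurofilament light and medium, from Nefl and Nefm, build the axonal neurofilament. Peripherin, from Prph, is found mainly in peripheral and cranial motor and sensory neurons. Dividing precursors are known for high B-type lamins, while A-type lamins from Lmna rise in many tissues as cells differentiate.

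Because the transduced factor is known to bind DNA at TTGGC half-sites, the promoters of the glial and precursor filaments are shown, with TTGGC on either strand in capitals. Each runs 5′ to 3′ on the gene's strand over 300 bases, from 250 before the start of the gene to 50 after it. The sequences are from RefSeq, build GRCm38.p6, at chr11:102897151-102897450 on the minus strand for Gfap, chr2:13574061-13574360 on the plus strand for Vim and chr3:87970843-87971142 on the plus strand for Nes.
Gfap: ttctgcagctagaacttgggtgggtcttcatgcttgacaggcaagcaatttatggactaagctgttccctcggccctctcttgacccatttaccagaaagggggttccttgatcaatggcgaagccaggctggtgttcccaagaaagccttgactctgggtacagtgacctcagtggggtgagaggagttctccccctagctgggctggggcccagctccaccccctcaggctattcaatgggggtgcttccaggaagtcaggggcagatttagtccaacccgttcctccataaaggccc
Vim: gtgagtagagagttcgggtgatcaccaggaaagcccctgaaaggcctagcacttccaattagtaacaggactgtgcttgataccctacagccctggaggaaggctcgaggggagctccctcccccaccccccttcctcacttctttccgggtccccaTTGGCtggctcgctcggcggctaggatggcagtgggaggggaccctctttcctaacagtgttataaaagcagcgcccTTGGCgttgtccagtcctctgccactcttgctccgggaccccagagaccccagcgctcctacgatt
Nes: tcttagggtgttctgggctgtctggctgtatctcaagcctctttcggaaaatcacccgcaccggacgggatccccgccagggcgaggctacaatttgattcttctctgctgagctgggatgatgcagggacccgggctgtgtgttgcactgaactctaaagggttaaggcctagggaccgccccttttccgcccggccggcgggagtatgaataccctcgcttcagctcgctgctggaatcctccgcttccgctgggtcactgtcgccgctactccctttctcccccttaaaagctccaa
The Vim window held TTGGC 2 times, with first bases 93 and 16 bases before the start. The Gfap and Nes windows held it 0 times, so they show no capitals. The table matched 7 of the 10 genes, and in it 46.7% of 32851 promoters held TTGGC on at least 1 strand, so a match is common. The paired site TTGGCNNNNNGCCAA, which contains the half-site at both ends, was in 0 windows of these genes and in 0.0365% of all promoters. Vim also held TATAAA from 32 to 27 bases before the start, the Prph window held it 1 time, and 13.6% of all promoters held that motif on either strand. The Ina and Prph windows held 1 half-site each. The first listed promoter of Lmna held 3 and its second 0, and those of Lmnb2 held 2 and 1. Not every window lies at the outer end of its gene. The Prph window, from 99054924 to 99055223, lies inside the gene's span, which begins at 99053579. Each Lmna window and the second Lmnb2 window also lie inside the span of the gene, so they describe internal starts. A letter match in this window is a description of the sequence and carries no information on binding in these cells.

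Nfia itself was 19.8, 23.9 and 22.2 FPKM in the 3 control libraries and 69.0, 85.6 and 103.5 FPKM in the 3 Nfia libraries, so the labels match the targeted gene. FPKM counts fragments adjusted for transcript length and for how many fragments mapped in that library, which allows levels of different genes to be set side by side. Library totals were 474010 to 511700 FPKM, and depth relative to control 1, read from steps between low values, was 0.76 to 1.11. The absolute depth is unknown, so no counting interval is given. The precursor label was checked on 8 markers. All 8 passed the filter below, and Sox2, a transcription factor of neural precursors, was 229 ± 8.21 FPKM in control against 238 ± 8.88 FPKM with Nfia (SD, n = 3 per group), with an adjusted p of 0.437 by limma. Of the 8, 1 was higher (Slc1a3) and 4 were lower (Sox1, Pax6, Hes5 and Msi1), beside 16.1% higher and 15.1% lower among all genes tested. With control 1, control 2 or Nfia 2 left out, Hes5 was no longer called (adjusted p = 0.059 to 0.065 by limma). Prom1 was also called higher without control 1 and under 3 other alternatives (adjusted p = 0.0315 to 0.0454, against 0.0561 with all libraries).

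Of the 10 genes, 9 averaged 1 FPKM or more across the libraries and were tested, and Prph lay below that filter. With Nfia, 5 rose (Vim, Nes, Nefl, Lmna and Lmnb1), 3 fell (Gfap, Nefm and Ina) and Lmnb2 did not pass the test. Tests are limma on log2(FPKM + 1) with Benjamini-Hochberg adjustment over 12537 genes, and a call is an adjusted p under 0.05. Among all 12537 genes, 16.1% were called higher and 15.1% lower, 31.3% in either direction. The median log2 difference, Nfia minus control, was 0.23 over the 9 filament genes and 0.01 over all genes tested. In 8 of the 9 control and Nfia libraries did not overlap (5 with Nfia above and 3 with Nfia below), against 47.7% of all genes (24.7% above and 22.9% below). The number called higher was 3 without control 1, without control 3 or without Nfia 2.

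**Figure D1:**
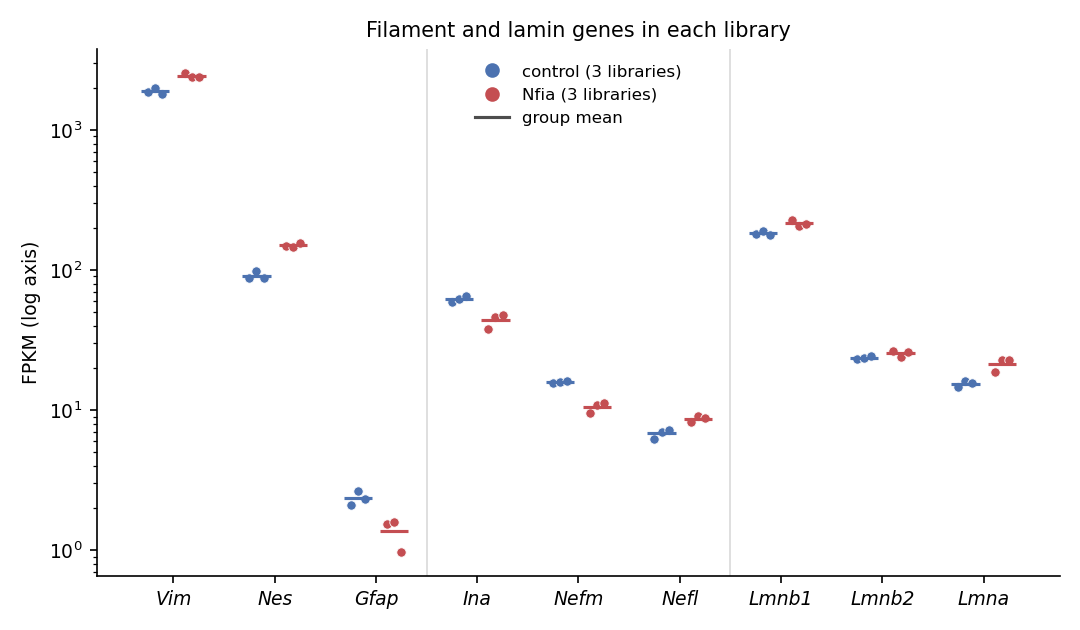
Level of 9 filament and lamin genes in FPKM on a log axis, with 1 point per library (blue control, red Nfia) and a line at each group mean. Vim lies far above the rest in both groups, and only Lmnb2 has control and Nfia points that overlap; Prph, listed at 0 in control 1, is not drawn.

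The levels spanned a wide range. In control cells Vim was the highest at 1888 ± 107 FPKM, the 8th highest of the 12537 genes tested. Lmnb1 followed at 183 ± 5.02 FPKM, a factor of 10.3 below Vim. Next in order came Nes, Ina, Lmnb2, Nefm, Lmna, Nefl, Gfap and Prph. The ranges of the libraries were apart at each step except that between Nefm (15.9 ± 0.145 FPKM) and Lmna (15.5 ± 0.735 FPKM), whose ranges overlapped. With Nfia the order was the same but for that pair. Lmna, at 21.5 ± 2.29 FPKM, then stood above Nefm, at 10.5 ± 0.847 FPKM, with ranges apart.

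Nes showed the clearest change. It encodes nestin, the large filament protein of neural precursors, and lies on chromosome 3 from 87971093 to 87980451 in GRCm38. Control 1, 2 and 3 measured 88.2, 97.9 and 88.0 FPKM, and Nfia 1, 2 and 3 measured 149.3, 145.3 and 154.9 FPKM. Every Nfia library was far above every control library, with a gap wider than the range within either group. The ratio of means was 1.64 (log2 difference 0.71, SE 0.06, adjusted p = 0.000469 by limma). Nes ranked 166th of 12537 genes by adjusted p, and its call held under all 16 alternatives, with adjusted p between 2.95e-05 and 0.00455.

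Vim, for vimentin, was already among the most abundant transcripts and rose further. It lies on chromosome 2 from 13574311 to 13582826. Its libraries held 1859, 2007 and 1799 FPKM in control and 2541, 2392 and 2395 FPKM with Nfia. The groups were apart, and the lowest Nfia library was above the highest control library by more than the spread within the control group. The ratio of means was 1.29 (log2 difference 0.37, SE 0.08, adjusted p = 0.0153 by limma). The call of Vim ended when all expressed genes were tested (adjusted p = 0.223), and when control 1, 2 or 3 or Nfia 1 or 2 was left out (adjusted p = 0.0529 to 0.0937), while the log2 difference stayed between 0.34 and 0.42 without any 1 library.

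Gfap, the astrocyte filament gene on chromosome 11 from 102887336 to 102897200, went the other way at a low level. It measured 2.12, 2.64 and 2.31 FPKM in control against 1.55, 1.59 and 0.977 FPKM with Nfia. All Nfia libraries were below all control libraries, with Nfia 3 the lowest of the 6. This is a ratio of means of 0.581 (log2 difference -0.51, SE 0.14, adjusted p = 0.0308 by limma). This call depended on each control library: adjusted p was 0.0506 with control 1 left out, 0.0856 with control 2 left out and 0.075 with control 3 left out. Of 8 other astrocyte markers, 5 passed the filter. Of these 1 was higher (Aldoc), 2 were lower (Aldh1l1 and Sox9) and 2 did not pass the test. Among all genes tested, 16.1% were higher and 15.1% lower. The Sox9 call (adjusted p = 0.0362 by limma) ended under 8 of 16 alternatives, among them a fit with replicate number as a block and the loss of control 2, control 3, Nfia 1, Nfia 2 or Nfia 3 (adjusted p = 0.052 to 0.107). Aqp4, S100b and Gjb6, markers of mature astrocytes, had means under 1 FPKM and were not tested. Mean levels in control and with Nfia were 0.577 and 0.389 FPKM for Aqp4, 0.686 and 0.491 for S100b, and 0.474 and 0.237 for Gjb6. For each of these genes all Nfia libraries were below all control libraries, as were 22.9% of all genes tested.

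**Figure D2:**
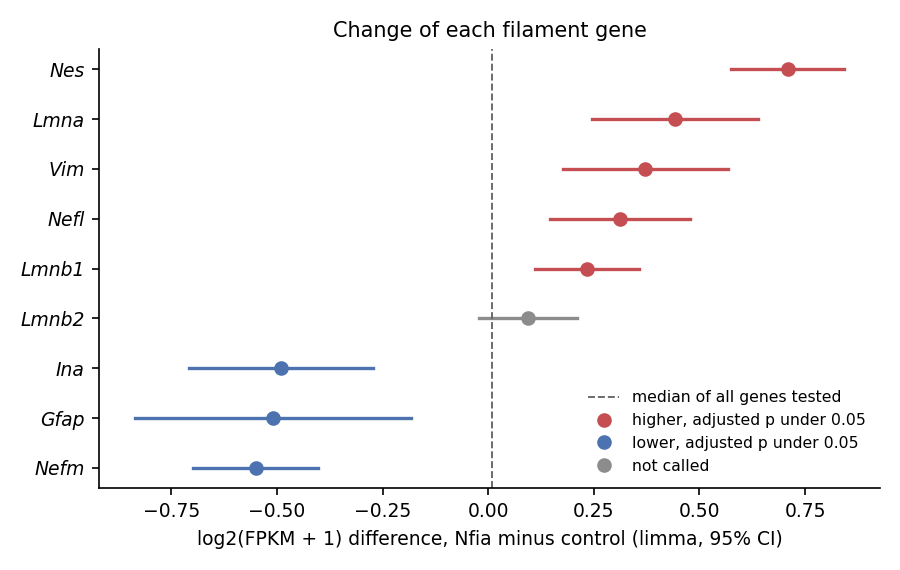
Difference between Nfia and control for each filament gene tested on the log2(FPKM + 1) scale (x axis), as limma estimates with 95% confidence intervals; the dashed line is the median of all genes tested, 0.01. Intervals of 5 genes lie wholly above it and of 3 wholly below, and that of Lmnb2 crosses it.

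The neuronal filament genes split. Nefm and Ina fell while Nefl rose. In these bulk libraries a change in neuron number and a change in RNA per neuron cannot be told apart. That holds for each neuronal gene below, in either direction. Nefm, for the medium neurofilament subunit, was 15.7, 15.9 and 16.0 FPKM in control and 9.58, 10.9 and 11.2 FPKM with Nfia. The control libraries were nearly identical and every Nfia library was clearly lower. Its ratio of means was 0.664 (log2 difference -0.55, SE 0.06, adjusted p = 0.0014 by limma).

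Ina, for alpha-internexin, was 58.8, 61.8 and 64.8 FPKM in control and 37.8, 46.3 and 47.6 FPKM with Nfia. The groups did not overlap, and Nfia 1 was the lowest. Mean Ina with Nfia was 0.71 of control (log2 difference -0.49, SE 0.09, adjusted p = 0.00839 by limma). Calls of both genes held under all 16 alternatives, with adjusted p up to 0.0105 for Nefm and 0.0373 for Ina.

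Nefl, for the light subunit, was 6.25, 6.97 and 7.26 FPKM in control and 8.18, 9.12 and 8.81 FPKM with Nfia. Each Nfia library was above each control library by a modest step. Mean Nefl with Nfia was 1.28 times control (log2 difference 0.31, SE 0.07, adjusted p = 0.0162 by limma). Leaving out Nfia 2 or Nfia 3 ended this call, with adjusted p at 0.0686 and 0.0562. Nefl and Nefm are neighbours on chromosome 14, Nefl from 68083863 to 68089095 and Nefm from 68119545 to 68125004. The gap between their spans is 30.4 kb and holds 1 predicted gene in the RefSeq table. Prph was 0, 0.0521 and 0.181 FPKM in control and 0.256, 0.777 and 0.248 FPKM with Nfia, near the lower end of what these files record, so no fold is given. Of 8 markers of peripheral and cranial neurons, 1 (Isl1) passed the filter and it was lower, and Chat was listed at 0 in all 6 libraries.

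Neuron markers moved in the same libraries. Of 12 neuron markers tested, 10 were lower, 0 were higher and 2 (Ncam1 and Rbfox3) did not pass the test. Among all genes tested, 15.1% were lower and 16.1% higher. When any 1 library was left out, 8 to 10 of the markers were lower. The summed level of the 12 markers was 1788 to 1866 FPKM in the control libraries and 1154 to 1164 FPKM in the Nfia libraries, a ratio of means of 0.637. Tubb3, the neuronal beta-tubulin, was 651, 602 and 574 FPKM in control and 319.8, 309 and 291 FPKM with Nfia. Its log2 difference of -0.99 was the largest fall among the 12 markers, whose median was -0.55. Elavl4 fell from 24.1 ± 0.77 to 13.7 ± 0.346 FPKM and Elavl3 from 90.2 ± 2.14 to 61.3 ± 0.513 FPKM. How far the neuron content sets the filament values was not tested, but each filament can be set against that sum within a library.

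Relative to the 12 neuron markers, the groups overlapped for Nefm and Ina, and Nefl was higher in every Nfia library. On the log2 scale the ratio of Nefm to the sum was -6.84 ± 0.0424 in control and -6.78 ± 0.12 with Nfia (SD, n = 3 per group; two-sided exact permutation p = 0.5). The ratio of Ina to the sum was -4.88 ± 0.0975 and -4.73 ± 0.183 (exact permutation p = 0.3). The ratio of Nefl to the sum was -8.06 ± 0.141 in control and -7.06 ± 0.079 with Nfia, a factor of 2.00 higher with no overlap (exact permutation p = 0.1, the smallest that 3 against 3 libraries can give). This denominator was chosen after the data were seen. These p-values do not show that Nefm and Ina moved alike with the neuron markers.

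**Figure D3:**
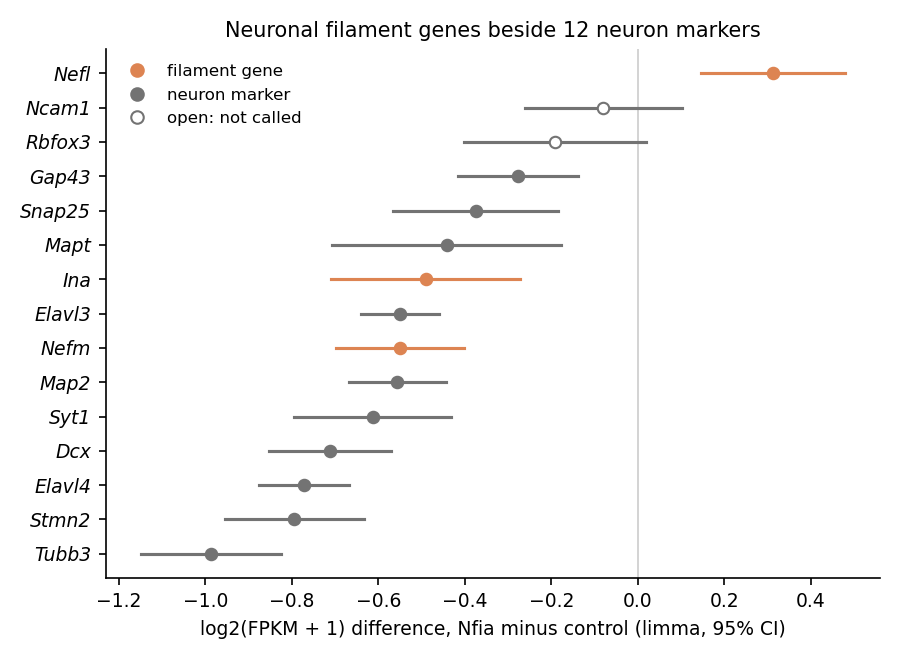
Log2(FPKM + 1) difference between Nfia and control (x axis, limma estimate with 95% confidence interval) for Nefl, Nefm and Ina (orange) and 12 neuron markers (grey, open where not called). Nefm at -0.55 and Ina at -0.49 lie among the neuron markers, and Nefl at 0.31 lies to the right of all 12.

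Of the lamin genes, Lmna and Lmnb1 rose with Nfia and Lmnb2 did not pass the test. Lmnb1 encodes lamin B1, a farnesylated lamin that stays at the nuclear membrane, and lies on chromosome 18 from 56707813 to 56753424. It was 181, 188 and 179 FPKM in control and 227, 207 and 212 FPKM with Nfia. The groups were apart, with Nfia 1 the highest. The ratio of means was 1.18 (log2 difference 0.23, SE 0.05, adjusted p = 0.0157 by limma), and leaving out control 1 or control 3 ended this call, with adjusted p at 0.0524 and 0.0572.

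Lmna, which encodes lamins A and C by alternative splicing, was 14.7, 16.1 and 15.7 FPKM in control and 18.8, 22.7 and 22.9 FPKM with Nfia. Nfia 1 stood between the control group and the other Nfia libraries. Mean Lmna with Nfia was 1.39 times control (log2 difference 0.44, SE 0.08, adjusted p = 0.0083 by limma), and the call held under all 16 alternatives. Values are per gene and do not separate lamin A from lamin C. Lmnb2, for lamin B2, was 23.3, 23.6 and 24.3 FPKM in control and 26.3, 24.0 and 26.0 FPKM with Nfia. Nfia 2 lay within the control range. The log2 difference of Lmnb2 was 0.09 (95% confidence interval -0.02 to 0.21, adjusted p = 0.186 by limma), which does not show that it was level.

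Summed over the 10 genes, filament transcripts were more abundant with Nfia. The sum was 2249, 2421 and 2197 FPKM in control and 3019, 2860 and 2880 FPKM with Nfia, 0.473% ± 0.023 and 0.59% ± 0.0134 of the library total (SD, n = 3 per group). The groups did not overlap. The ratio of mean sums was 1.28 (two-sided exact permutation p = 0.1, the smallest possible with 3 against 3). Vim made up 87.9% of the net increase, Nes 9.26% and Lmnb1 5.13%, and the part of Ina was -2.84%. The 3 glial and precursor genes together went from 1982 ± 113 to 2594 ± 84.8 FPKM, the 3 lamins from 222 ± 5.26 to 262 ± 9.14 FPKM and the 4 neuronal genes from 84.6 ± 3.74 to 63.6 ± 6.75 FPKM, all without overlap between groups.

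The make-up of the sum was set by Vim in both groups. Its share was 82.6%, 82.9% and 81.9% in control and 84.2%, 83.7% and 83.2% with Nfia. The step between groups was small, 1.17 percentage points, but the groups did not overlap. The share of Nes was 3.92%, 4.05% and 4.01% in control and 4.94%, 5.08% and 5.38% with Nfia. Nestin transcripts thus took up more of the filament sum in every Nfia library. The share of Ina was 2.61%, 2.55% and 2.95% in control and 1.25%, 1.62% and 1.65% with Nfia, and that of Nefm 0.695% ± 0.0377 and 0.362% ± 0.0388. The share of Gfap was 0.103% ± 0.00783 in control and 0.0469% ± 0.0115 with Nfia.

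Levels and shares did not move together for every gene. Lmnb1, whose FPKM rose, held 8.0% ± 0.186 of the sum in control and 7.37% ± 0.136 with Nfia, with all Nfia libraries below all control libraries. Lmnb2, whose level did not pass the test, held 1.04% ± 0.066 and 0.871% ± 0.0327, also without overlap. The share of Nefl was 0.299% ± 0.0278 and 0.299% ± 0.0249, with overlapping groups (exact p = 1). The share of Lmna was 0.677% ± 0.0338 and 0.737% ± 0.0986, also overlapping (exact p = 0.4). For the other 8 shares the exact permutation p was 0.1, and 0.125 after Benjamini-Hochberg adjustment over the 10 shares, a design in which no share could pass.

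With Vim left out, an alternative chosen after the data were seen, the change in make-up is easier to see. Lmnb1 then held 45.7% ± 0.727 of the remaining sum in control and 45.1% ± 1.97 with Nfia, with overlap. The share of Nes was 22.6%, 23.7% and 22.1% in control and 31.2%, 31.1% and 32.0% with Nfia. That of Ina was 15.1%, 15.0% and 16.3% in control and 7.89%, 9.9% and 9.82% with Nfia. In the control libraries Ina thus stood nearer to Nes than in any Nfia library.

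**Figure D4:**
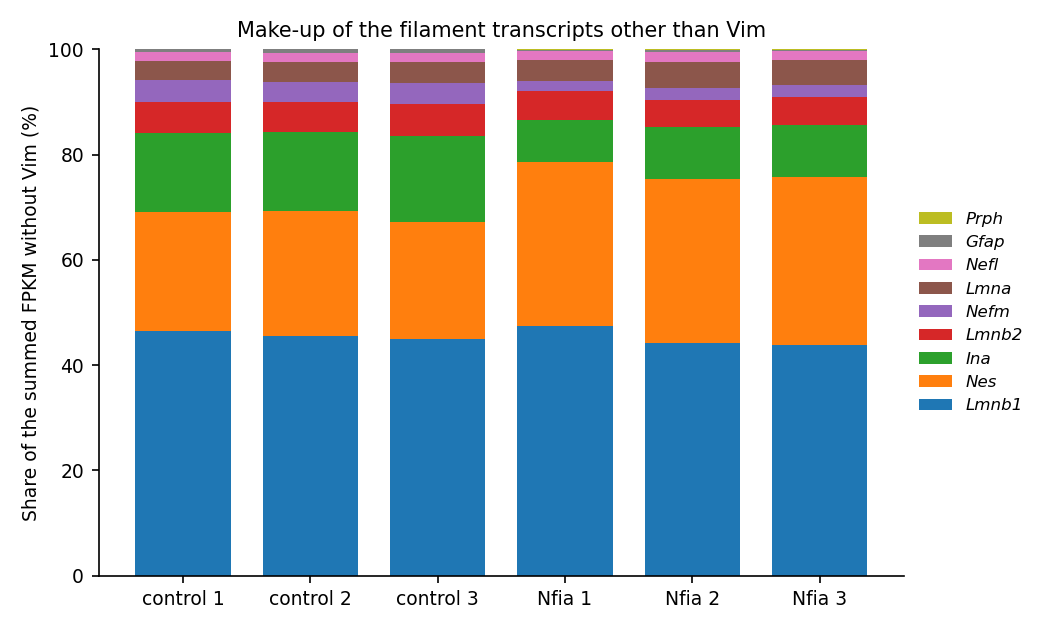
Share of each gene in the summed FPKM of the 9 filament and lamin genes other than Vim (y axis, percent), stacked for each of the 6 libraries. The Nes part is 22.1% to 23.7% in control and 31.1% to 32.0% with Nfia, and the Ina part is 15.0% to 16.3% and 7.89% to 9.9%.

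Ratios between partners within a library, 7 in all, need no total. They rest on the same FPKM values as the shares, so they are not a separate check of them. The Nes to Vim ratio was 0.0475, 0.0488 and 0.0489 in control and 0.0588, 0.0607 and 0.0647 with Nfia, so nestin transcripts per vimentin transcript were higher in every Nfia library. The Gfap to Vim ratio on the log2 scale was -9.65 ± 0.112 in control and -10.83 ± 0.375 with Nfia. The Nefl to Nefm ratio was 0.397, 0.44 and 0.453 in control and 0.853, 0.839 and 0.788 with Nfia. This step, 0.95 on the log2 scale, was the largest increase among the 7 ratios, and the groups lay far apart. The Ina to Nefm ratio was 3.89 ± 0.154 and 4.15 ± 0.184, with overlap (exact permutation p = 0.2).

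Among lamins, the Lmnb1 to Lmnb2 ratio was 7.71 ± 0.321 in control and 8.47 ± 0.278 with Nfia, without overlap. The ratio of Lmna to the summed B-type lamins was 0.0717, 0.0758 and 0.0774 in control and 0.0744, 0.0983 and 0.0961 with Nfia (exact permutation p = 0.3). Nfia 1 lay within the control range, and the groups overlapped. The 4 neuronal filaments relative to Tubb3 were 0.14 ± 0.0149 and 0.208 ± 0.0304, without overlap, and relative to the 12 neuron markers the log2 difference was 0.23 with overlap (exact permutation p = 0.2). The 5 ratios without overlap had an exact permutation p of 0.1, and 0.14 after adjustment over the 7.

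**Figure D5:**
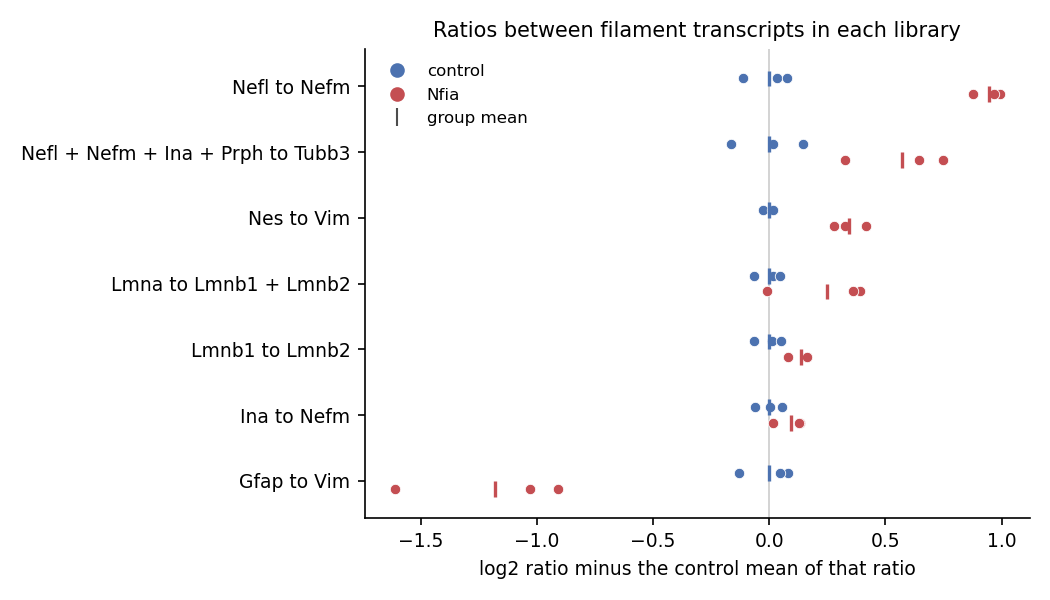
Log2 ratio between filament transcripts in each library, drawn as its distance from the control mean of that ratio (x axis; blue control, red Nfia, ticks at group means). Nefl to Nefm is higher by 0.95 and Gfap to Vim lower (-1.18) with Nfia, and the points of Ina to Nefm and of Lmna to the B-type lamins overlap.

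Other genes of the filament system were read from lists. Of 18 further cytoplasmic filament genes, 14 lay below the filter, among them Nefh, the heavy neurofilament gene (0.403 ± 0.0915 FPKM in control and 0.308 ± 0.0533 FPKM with Nfia), Des and the epithelial keratins Krt8 and Krt18. The 4 tested were Synm, Iffo1, Iffo2 and Krt10, and 0 were called in either direction by limma, with 0 at an unadjusted p under 0.05. With control 1 left out, 1 of the 4 was called lower. Of 12 linker and turnover genes, 8 were tested, 1 was higher and 2 were lower, with a median log2 difference of -0.03. The shares among all genes tested were 16.1% higher and 15.1% lower. Trim2, a ubiquitin ligase that acts on neurofilament light, fell from 29.5 ± 1.12 to 19.9 ± 0.643 FPKM (adjusted p = 0.000559 by limma). Jup, for plakoglobin, a junction protein that anchors filaments, fell from 6.22 ± 0.342 to 4.01 ± 0.394 FPKM. Cryab, a small heat shock protein that binds GFAP and vimentin filaments, rose from 1.11 ± 0.485 to 2.48 ± 0.122 FPKM (adjusted p = 0.022 by limma), a call that ended without Nfia 1, 2 or 3 (adjusted p = 0.0517 to 0.0716).

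Of 22 genes of lamin processing and the inner nuclear membrane, 21 were tested, and 5 were higher and 0 lower, with a median log2 difference of 0.05. The share called higher can be set beside the 16.1% of all genes. Fnta, a subunit of protein farnesyltransferase, was called lower under each of the 3 other scalings and with the replicate block (adjusted p = 0.0248 to 0.0488 by limma, against 0.0678 in the fit without them). Lbr, for the lamin B receptor, rose from 32.8 ± 0.608 to 41.5 ± 0.358 FPKM (adjusted p = 0.00132 by limma). Zmpste24, the protease that matures prelamin A, rose from 22.2 ± 1.27 to 27.6 ± 0.58 FPKM, and Rce1, a protease that trims farnesylated proteins, from 17.6 ± 1.51 to 22.4 ± 0.295 FPKM. Tor1aip1, for the lamina-associated polypeptide LAP1, rose from 15.3 ± 0.622 to 18.6 ± 0.659 FPKM. Nrm, for nurim, rose from 16.2 ± 1.95 to 22.2 ± 3.5 FPKM (adjusted p = 0.0422 by limma). That call ended under 8 of 16 alternatives, among them without control 1, control 3, Nfia 1 or Nfia 3 and with replicate number as a block (adjusted p = 0.0551 to 0.13).

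Of 12 kinase and phosphatase genes whose products act on filaments, 4 were higher and 2 lower, with a median log2 difference of 0.22. Of all genes tested, 16.1% were higher and 15.1% lower. Cdk1, which phosphorylates lamins and vimentin at mitosis, rose from 58.5 ± 0.944 to 73.1 ± 3.8 FPKM (adjusted p = 0.00412 by limma). Rock1 and Rock2, kinases that phosphorylate vimentin and GFAP, rose by 0.29 and 0.30 on the log2 scale. Plk1, a mitotic kinase, rose by 0.32, a call that ended under 10 of 16 alternatives, among them those that left out control 1, 2 or 3 or Nfia 2 or 3 (adjusted p = 0.0562 to 0.135). Pak1 and Cdk5, kinases active in neurons, fell by 0.40 and 0.26 on the log2 scale. The number called higher was 3 to 6 when any 1 library was left out.

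Microglia and endothelial markers were low. The 7 microglia markers all had means under 1 FPKM. Of 6 endothelial markers 1 (Cldn5) passed the filter, and it was lower. The 8 markers of mesenchymal cells and pericytes, which also express Vim and Lmna, summed to 18.6 to 31.5 FPKM in control and 12.8 to 31.5 FPKM with Nfia, with 0 higher and 1 lower (Rgs5). Rgs5, with an adjusted p of 0.0177 by limma, was no longer called with Nfia 2 left out (0.0675) or with Nfia 3 left out (0.0599). The 6 markers of oligodendrocyte precursors summed to 355 to 400.4 FPKM in control and 1048 to 1110 FPKM with Nfia. Olig1 and Olig2 were higher and Pdgfra was lower (log2 difference -0.64). The counts called in these marker lists stand beside 16.1% higher and 15.1% lower among all genes tested. Mesenchymal and pericyte markers, with 1 of 8 lower, are near that share. Mean levels in control and with Nfia were 226.7 and 689.6 FPKM for Olig1 and 136.2 and 373 FPKM for Olig2. These genes made up most of the sum, so it does not describe the other markers of the list. Sox10 (means of 1.89 and 1.15 FPKM) and Cspg4 (2.2 and 2.69 FPKM) were not called. Gpr17, with an adjusted p of 0.0504 by limma, was also called lower without Nfia 1 and under 6 other alternatives (adjusted p = 0.0214 to 0.047). The part of these precursor markers in the filament values was not tested.

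Genes most like a filament gene over the 6 libraries were picked by the highest Pearson r of log2(FPKM + 1), as a description over libraries that fall into 2 groups. They were Ptbp1 (r = 0.999) and Zcchc24 (r = 0.999) for Nes, Rpa1 (r = 0.998) and Nop2 (r = 0.998) for Vim, and Sgk1 (r = 0.995) and Atp6v1g1 (r = 0.99) for Gfap. Zcchc24 was 22.7 ± 1.16 FPKM in control against 38.8 ± 1.08 FPKM with Nfia, and Sgk1 6.28 ± 0.302 and 4.53 ± 0.586 FPKM.

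In the RefSeq table, 2 of the 10 genes overlap another gene. Ina shares part of its span with Nt5c2, which fell to 17.1 ± 0.498 FPKM with Nfia from 21.3 ± 1.48 FPKM in control (adjusted p = 0.00951 by limma). Nefm overlaps the noncoding A230070E04Rik, at 1.58 ± 0.36 FPKM in control and 1.11 ± 0.404 FPKM with Nfia (not called). No source used here says whether counting used strand, so reads of such pairs may not be separated. Vim, Gfap and Prph, like Nefl, Nefm and Ina, share conserved rod sequences, and how reads that fit more than 1 gene were assigned is not given either.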

How the data were processed

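Poly(A) RNA of 3 control and 3 Nfia-transduced samples was sequenced from directional libraries, per the labels' protocols. The deposited values are FPKM, 1 per gene symbol, a unit read from the values and tools since the files have no header. Per the submitters' processing notes, TopHat, Bowtie version 1, SAMtools, Cufflinks, Cuffdiff, MACS version 1.4 and mm10 were used, with no role given; annotation, filters and use of strand were not stated in any source used. FPKM is relative to the library, so a rise of abundant transcripts lowers others.

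Groups were compared on log2(FPKM + 1), for the 12537 genes averaging 1 FPKM or more, with limma 3.58.1 in R 4.3.3 (lmFit and eBayes with trend, two-sided; 4 residual degrees of freedom). The step was tested on simulated data with independent noise and few changed genes. That checks the code and does not show how the test behaves on these libraries. Sums, shares and ratios were compared by exact permutation with scipy 1.17.1. Members and lists were chosen with earlier results of these data known. Named are all 10 members, up to 3 called genes a list by adjusted p and all where 5 or fewer were called in a direction, and the 2 genes most like Gfap, Vim and Nes. Alternatives were the pseudocount, filters, scalings, trend, weights, a replicate block and leaving out each library. No label ties the replicate numbers of one group to those of the other.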

Additional observations from a re-analysis of the deposited data

How the results depend on the processing

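No filament gene changed direction under the pseudocount of 0.1, the other filters, upper-quartile, median-of-ratios or quantile scaling, the other limma settings or the loss of 1 library, in the 9 genes tested. Leaving out 1 library gave 1290 to 1625 genes higher and 1251 to 1572 lower of 12537, the lowest counts without Nfia 2, and 3 to 4 filament genes higher and 2 to 3 lower. The share of Nefl, with a difference of -9.08e-05 percentage points, has no stable sign. It was 0.00615 under quantile normalization, 0.122 with Vim left out of the sum, and -0.0105 to 0.0157 without 1 library. All other shares, ratios and the sum kept their direction under each alternative run; the summed level differed by 0.32 to 0.39 on the log2 scale without 1 library. Labels do not tie the replicate numbers of the 2 groups, and deviations from the group means correlated by 0.0264, -0.00578 and 0.0461 between libraries of the same number, over genes. With the replicate block, 2130 genes were higher and 1916 lower, 5 filament genes higher and 3 lower, and no call among the 9 filament genes changed. Over all genes, the median log2 difference of 0.0084 became -0.022 under upper-quartile scaling, 0.0017 under median-of-ratios scaling and -0.0073 under quantile normalization. Depth limits Prph and Gfap most: low values rest on fewer fragments, and their number is unknown.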
